A study of Mus musculus and Homo sapiens with 9 samples.

Results

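The PTBP family comprises the polypyrimidine tract-binding proteins PTBP1, PTBP2 and PTBP3, and its genes were followed here at the RNA level in T cells with little or no IRF2BP2. The members were the rows named PTBP1, PTBP2 or PTBP3 in a human and a mouse gene count table, 3 of 64252 rows in the human table and 3 of 43432 rows in the mouse table. All 6 rows passed the filter on low counts. They were chosen by their changes in both contrasts described here, which were already known, so the values of the members are given without a test. J.gamma1, a derivative of the Jurkat line of T-cell acute lymphoblastic leukemia (T-ALL), carried a control hairpin (shNC, 2 libraries) or a hairpin against IRF2BP2 (shIRF2BP2, 2 libraries), each delivered by lentivirus and kept under puromycin. The mouse samples were CD3+ T cells sorted with magnetic beads from spleen, 2 libraries from Irf2bp2 knockout mice (KO, Vav-iCre+/-;Irf2bp2 fl/fl) and 3 from controls. The controls are wild type by their labels and Vav-iCre-/-;Irf2bp2 fl/fl by the study's methods, so that both groups would carry the floxed allele and differ in the Cre. Vav-iCre acts across blood cells and not only in T cells, and the age of the sequenced mice is not in the labels. J.gamma1 is 1 line, and the sources used here do not name which hairpin was sequenced or whether replicates were separate cultures. The p-values below measure the spread between these libraries, which may be technical.

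PTBP proteins bind runs of C and U in RNA through RNA-recognition motifs, and they repress or promote exons, guide 3′ end choice and stabilize some transcripts. PTBP1 is made in most tissues. It keeps PTBP2, which is best known from neurons and the germ line, low in other cells by causing an exon of its transcript to be skipped, after which the transcript is degraded. PTBP3, also known as ROD1, is abundant in blood cells and binds similar sequences.

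One feature that set the PTBP3 transcript apart from those of its relatives was a 7-letter word, AGGTCTA, which an earlier examination of these data had picked out in transcripts that were lower after shIRF2BP2. The representative PTBP3 transcript (ENST00000374257.6, 7192 bases) held 4 copies. That of PTBP1 (ENST00000356948.11, 3206 bases) held 0 and that of PTBP2 (ENST00000674951.1, 3321 bases) held 0. Less sequence was thus searched in the relatives, and the longest PTBP2 transcript, of 12014 bases, was not searched. PTBP2 held the shorter word GGTCTA, which lies within AGGTCTA, 2 times. The copies follow, 5′ to 3′, with 10 bases on each side and the word in capitals. Sites 1 and 2 of PTBP3 are in the coding sequence and sites 3 and 4 in the 3′ UTR, and both sites of PTBP2 are in the 3′ UTR.
PTBP3 site 1: tcatatcattAGGTCTAccatttggca
PTBP3 site 2: ctcaagctacAGGTCTAtcagttccag
PTBP3 site 3: gaaaatattcAGGTCTAtcatatggtt
PTBP3 site 4: tgaattatagAGGTCTAcagtatttgt
PTBP2 site 1: tcacaattctGGTCTAgattcagtta
PTBP2 site 2: tgtgcagactGGTCTAgctagttcag

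On the minus strand of chromosome 9 (hg38), PTBP3 site 1 lies in exon 3 of 14 at chr9:112275892-112275898. Site 2 spans the junction of 2 exons. Sites 3 and 4 lie in exon 14, at chr9:112222943-112222949 and chr9:112221041-112221047. The PTBP2 sites lie in its last exon at chr1:96814003-96814008 and chr1:96814323-96814328 on the plus strand. In mouse, the representative Ptbp3 transcript (ENSMUST00000030076.11, mm10) held 3 copies of AGGTCTA, shown for comparison with the human sites.
Ptbp3 site 1: tcatatcattAGGTCTAccatttggca
Ptbp3 site 2: aaaaatattcAGGTCTAtcatatggtt
Ptbp3 site 3: tttattatagAGGTCTAcaatatttgt
Over these 27 bases, human site 1 equalled mouse site 1 at 27 positions, human site 3 equalled mouse site 2 at 26 and human site 4 equalled mouse site 3 at 24. The closest mouse site to human site 2 shared only 15 positions with it. These mouse sites lie on the minus strand at chr4:59517634-59517640 in the coding sequence, and at chr4:59475989-59475995 and chr4:59474310-59474316 in the 3′ UTR. The mouse Ptbp2 transcript held 1 copy, in its 5′ UTR, and that of Ptbp1 held 0.

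The libraries held 26648204 to 31120236 counts in J.gamma1 cells and 16668577 to 37177523 counts in mouse T cells, where WT replicate 3 was the shallowest. The targeted gene was checked first. IRF2BP2 measured 204 and 199 CPM (counts scaled to the library's size) with shNC and 79.0 and 93.8 CPM with shIRF2BP2. In mouse T cells, Irf2bp2 had 4145, 4594 and 1915 counts in the WT libraries and 0 in both KO libraries. All 6 T cell markers listed (CD3D, CD3E, CD3G, CD2, CD5 and LCK) were detected in both kinds of cells. A gene was called where edgeR's quasi-likelihood F-test gave a p under 0.05 after Benjamini-Hochberg adjustment over all genes. In J.gamma1 cells 11.2% of the genes tested were called, 5.83% higher and 5.32% lower. In mouse T cells 2.83% were called, 2.68% higher and 0.15% lower. These counts depend on single libraries. In J.gamma1 cells 923 genes were higher and 841 lower, but 418 and 419 without shIRF2BP2 replicate 1, 518 and 516 without shIRF2BP2 replicate 2, and 1863 and 1384 without shNC replicate 1. In mouse T cells 412 were higher and 23 lower, but 6 and 1 without WT replicate 1, 47 and 3 without KO replicate 1, and 9 and 1 without KO replicate 2. The number of lower genes was 65 without WT replicate 2 and 51 without WT replicate 3.

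PTBP3 was the member whose libraries separated by group in J.gamma1 cells. The gene (ENSG00000119314, chr9:112217716-112333664, minus strand) had 9926 and 9802 counts with shNC and 2477 and 2556 counts with shIRF2BP2. On the CPM scale this was 383 and 316 against 85.1 and 86.7. Both shIRF2BP2 libraries thus lay far below both shNC libraries, and they lay closer to each other than the control pair did. The mean level was 350 ± 47.7 CPM with shNC and 85.9 ± 1.16 CPM with shIRF2BP2 (SD, n = 2 each), so that 24.6% of the control level was left. The log2 fold change was -2.03 (SE 0.140), a level 4.07-fold lower, and 97 of the 15819 genes tested had a lower value. It ranged from -2.16 to -1.88 when single libraries were left out. In 28.7% of all genes tested every shIRF2BP2 library lay below every shNC library.

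PTBP1, the most abundant member, did not separate the groups. The gene (ENSG00000011304, chr19:797075-812327, plus strand) had 17228 and 18619 counts with shNC and 18379 and 16377 with shIRF2BP2. Its levels were 665 and 600 CPM with shNC and 631 and 556 CPM with shIRF2BP2, so the groups overlapped. The means were 633 ± 46.1 and 593 ± 53.5 CPM (SD, n = 2 each). They gave a log2 fold change of -0.09 (SE 0.137).

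PTBP2, the member known to be restricted by PTBP1 in non-neuronal cells, was detected in every library, at a lower level than PTBP1 and PTBP3. Its mean over all J.gamma1 libraries was still above that of 61.9% of the genes tested. The gene (ENSG00000117569, chr1:96721665-96823738, plus strand) had 1048 and 1173 counts with shNC and 1023 and 1151 with shIRF2BP2. Its levels of 40.5 and 37.8 CPM with shNC overlapped those of 35.1 and 39.0 CPM with shIRF2BP2. The log2 fold change was -0.08 (SE 0.130), and the means were 39.1 ± 1.89 and 37.1 ± 2.77 CPM (SD, n = 2 each). Of 4 listed neuronal markers, RBFOX3 was at 0 counts in all J.gamma1 libraries, while SNAP25, TUBB3 and MAP2 were detected, and 0 were called. The summed level of the list lay at 17.9 to 21.7 CPM with shNC and 24.3 to 27.1 CPM with shIRF2BP2. These ranges did not overlap, and how often sums of other genes separate the groups was not counted.

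In mouse T cells, the levels of Ptbp3 and Ptbp1 overlapped between the groups. Ptbp3 (ENSMUSG00000028382, chr4:59471868-59549364, minus strand) had 15064, 12991 and 8075 counts in the WT libraries and 16162 and 15965 in the KO libraries. Its levels were 407, 359 and 505 CPM in WT and 422 and 450 CPM in KO. The KO libraries thus lay within the range of the WT libraries, of which the shallowest was the highest. The log2 fold change was 0.04 (SE 0.173), and its sign depended on single libraries, being -0.05 without WT replicate 2, -0.03 without KO replicate 2 and 0.18 without WT replicate 3.

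Ptbp1 (ENSMUSG00000006498, chr10:79854427-79864771, plus strand) had 15082, 15298 and 6899 counts in WT and 14552 and 15069 in KO. Its levels were 407, 423 and 432 CPM in WT and 380 and 424 CPM in KO, which overlapped, with a log2 fold change of -0.06 (SE 0.126). Genes that overlap Ptbp1 on the annotation held few counts beside it, 759 for Plppr3 and 243 for E130317F20Rik over the 5 libraries.

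Ptbp2 (ENSMUSG00000028134, chr3:119718742-119784466, minus strand) was the only mouse member whose groups did not overlap. It had 1251, 1232 and 568 counts in WT and 978 and 1049 in KO. Its levels were 33.8, 34.1 and 35.5 CPM in WT and 25.5 and 29.5 CPM in KO, so the WT libraries lay close together and the KO libraries below them. The log2 fold change was -0.32 (SE 0.140), and in 17.8% of all genes tested the KO libraries all lay below the WT libraries.

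**Figure D1:**
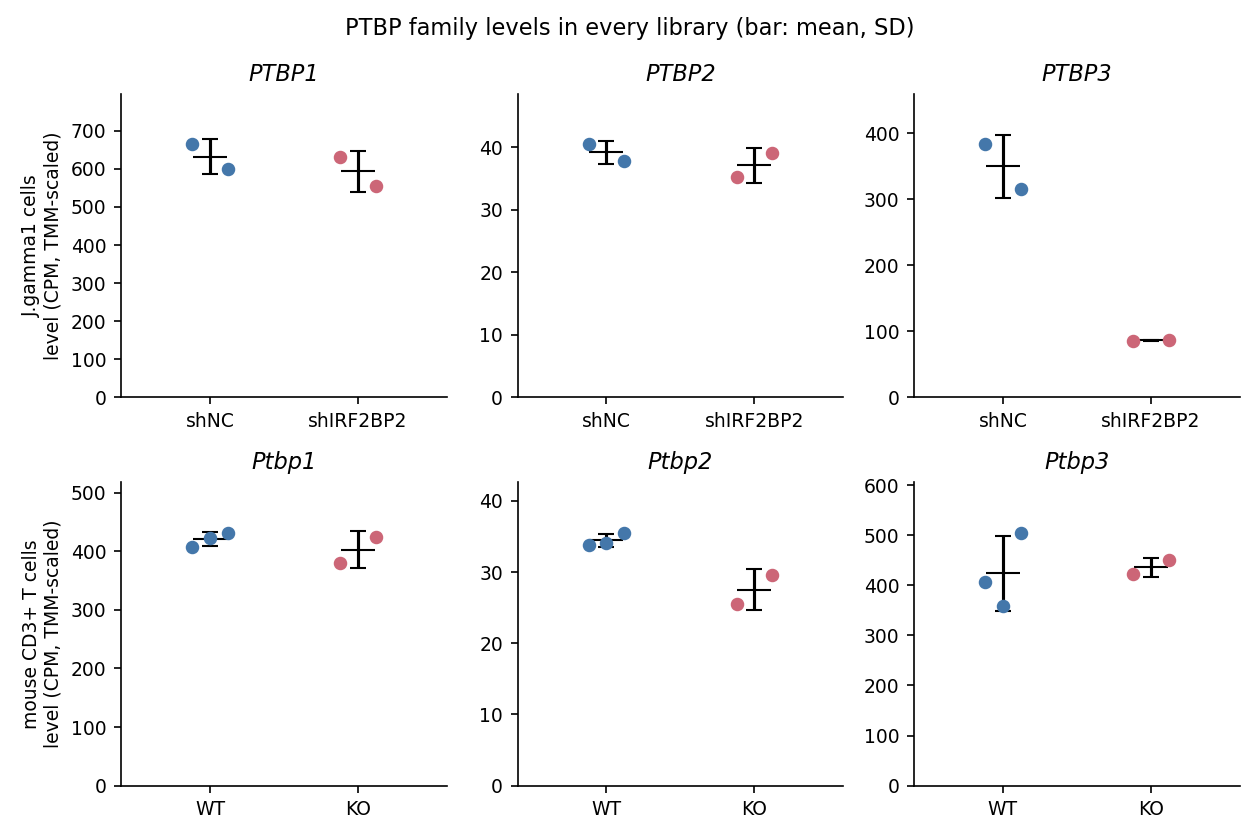
Level of each PTBP family gene in every library, in CPM on TMM-scaled library sizes, for J.gamma1 cells (top; shNC and shIRF2BP2, n = 2 each) and mouse CD3+ T cells (bottom; WT, n = 3; KO, n = 2). Points are libraries and bars the mean and SD. PTBP3 lay at 383 and 316 CPM with shNC and at 85.1 and 86.7 CPM with shIRF2BP2, whereas Ptbp3 in KO libraries lay within the WT range.

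The mouse groups differed in their cell markers beside these values. The summed level of 6 T cell markers lay at 2764 to 3346 CPM in WT and at 2068 to 2255 CPM in KO, with none of them called. That of the erythroid list lay at 583 to 2242 CPM in WT and 4298 to 6085 CPM in KO, with 3 of its 8 genes called higher and none at 0. That of 5 cycling genes lay at 106 to 213 CPM in WT and 793 to 864 CPM in KO, with 3 called higher. Of all genes tested in mouse T cells, 2.68% were called higher. The part of these markers in the levels of the members was not tested. In such bulk samples, fewer cells of a type cannot be told apart from less RNA per cell. In J.gamma1 cells, the summed level of 4 B cell markers was 50.0 to 64.9 CPM with shNC and 15.5 to 18.0 CPM with shIRF2BP2. Of these markers, 1 was called lower and MS4A1 was at 0. The 6 T cell markers summed to 1387 to 1552 and 1304 to 1400 CPM, with 1 called lower. The 5 cycling genes summed to 2471 to 2732 and 2381 to 2422 CPM, also with 1 called lower. Of all genes tested in J.gamma1 cells, 5.32% were called lower.

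To compare the members with each other, CPM was divided by the length of each gene's exons in kilobases. On this scale of CPM per kb, the order in shNC cells was PTBP1 (84.1 ± 6.13), PTBP3 (42.5 ± 5.79) and PTBP2 (1.95 ± 0.094; SD, n = 2 each), and no range of 1 member overlapped that of another. With shIRF2BP2 the order was the same, with 78.9 ± 7.11 for PTBP1, 10.4 ± 0.140 for PTBP3 and 1.84 ± 0.137 for PTBP2. The summed family level was 129 ± 12 CPM per kb with shNC and 91.2 ± 6.84 with shIRF2BP2. PTBP3 made up 33.0% of the sum with shNC and 11.5% with shIRF2BP2, and PTBP1 65.5% and 86.5%. The ratio of PTBP1 to PTBP3 counts, which needs neither a length nor a library size, was 1.74 and 1.90 with shNC and 7.42 and 6.41 with shIRF2BP2.

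Mouse T cells had the same order, with 88.7 ± 2.63 CPM per kb for Ptbp1, 56.6 ± 9.95 for Ptbp3 and 3.76 ± 0.103 for Ptbp2 in WT (SD, n = 3), again with no overlap between the ranges of the members. In KO the levels per kb were 84.8 ± 6.64, 58.3 ± 2.62 and 3.0 ± 0.309 (SD, n = 2). The sums, 149 ± 11.6 and 146 ± 9.56 CPM per kb, overlapped. Ptbp3 took 37.8% of the sum in WT and 39.9% in KO. The ratio of Ptbp1 to Ptbp3 counts was 1.00, 1.18 and 0.854 in WT and 0.900 and 0.944 in KO. The lengths weigh on these shares: with the longest annotated transcript in place of all exons, PTBP3 made up 23.9% of the sum with shNC and 7.64% with shIRF2BP2.

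**Figure D2:**
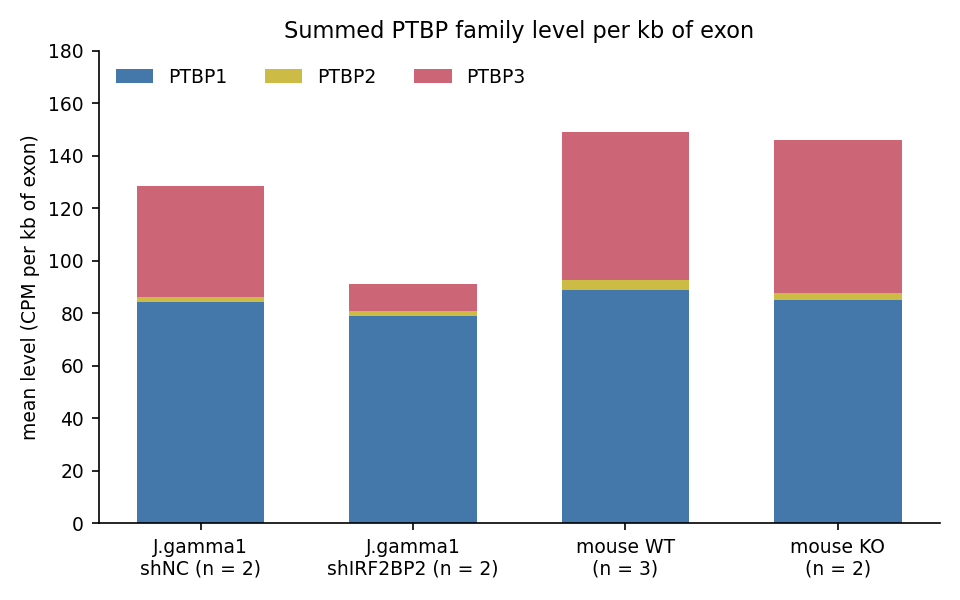
Mean level of PTBP1, PTBP2 and PTBP3 in CPM per kb of exon, stacked, in J.gamma1 cells (shNC and shIRF2BP2, n = 2 each) and mouse CD3+ T cells (WT, n = 3; KO, n = 2). The PTBP3 segment measured 42.5 with shNC and 10.4 with shIRF2BP2, and the sum 129 and 91.2, while both mouse sums lay near each other at 149 and 146.

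Reads of relatives can be miscounted where sequences are identical. The representative transcripts of the members shared 0 stretches of 31 bases in either species, and the longest exact run in common was 21 bases, between PTBP2 and PTBP3. The processed pseudogene PTBP1P had 0 counts in all human libraries, and the small RNA genes and pseudogenes inside PTBP3 held at most 4 counts each. The coding genes next to PTBP3 moved differently from it. SUSD1 had 27.2 CPM with shNC and 35.3 CPM with shIRF2BP2 (log2 fold change 0.38), and HSDL2 had 79.8 and 73.2 CPM (-0.12).

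Genes with the pattern most like that of each member were named by the smallest root mean square difference of centered log2 CPM. In J.gamma1 cells, over 4 libraries and 9755 genes of at least 10 CPM, those nearest to PTBP3 were RAG2 (difference 0.077), a part of the V(D)J recombinase, and DCLK3 (0.099), a kinase. RAG2 had 16.9 CPM with shNC and 4.20 CPM with shIRF2BP2, and DCLK3 had 20.1 and 5.28 CPM. FBXO22 and RPGR were nearest to PTBP1, and ZNF740 and the splicing factor SRSF11 to PTBP2. Over 5 libraries and 9101 genes of mouse T cells, Proser1 and Snapc3 were nearest to Ptbp3, Ube2j1 and Becn1 to Ptbp1, and Bscl2 and Rfxank to Ptbp2.

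PTBP proteins act together with, or against, other RNA-binding proteins, of which 28 were listed. In J.gamma1 cells 26 were tested, and 2 were higher and 1 lower, 11.5% of the list beside 11.2% of all genes. The list's median log2 fold change was 0.09 beside 0.007 over all genes. RAVER2, a co-repressor that binds PTBP1, fell from 56.1 and 50.0 CPM with shNC to 27.9 and 25.5 CPM with shIRF2BP2. Its log2 fold change was -0.99 (SE 0.134, adjusted p = 0.0047 from edgeR), and it stayed called without any 1 library. Its relative RAVER1 had 63.1 and 63.4 CPM with shNC and 77.6 and 46.5 CPM with shIRF2BP2. Its log2 fold change was -0.03 and became 0.29 without shIRF2BP2 replicate 2.

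Both higher genes of this list bind other motifs than PTBP1. QKI, the RNA-binding protein quaking, rose from 113 and 102 CPM to 169 and 170 CPM (log2 fold change 0.66, adjusted p = 0.014 from edgeR). CELF1, which binds U- and G-rich elements, rose from 211 and 174 CPM to 323 and 297 CPM (log2 fold change 0.69, adjusted p = 0.021 from edgeR). Without shIRF2BP2 replicate 1 neither was called (adjusted p = 0.074 and 0.12 from edgeR), and QKI was also not called without shIRF2BP2 replicate 2 (adjusted p = 0.057). MATR3, a partner of PTBP1 in exon repression, had a log2 fold change of 0.08, HNRNPLL one of 0.13 and HNRNPL one of -0.34 (adjusted p = 0.13 from edgeR). HNRNPL was lower in both shIRF2BP2 libraries, at 488 and 464 CPM against 573 and 632 CPM, and was called without shNC replicate 1 (adjusted p = 0.036).

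Of 21 transcripts known to be bound or spliced under PTBP control, 18 were tested in J.gamma1 cells, and 5 were higher and 0 lower. At an unadjusted p under 0.05, 6 were higher and 1 lower, where 14.3% of all genes were higher and 13.4% lower. DESeq2 called 6 higher and 0 lower, and over the 27082 genes it was run on 4.53% higher and 4.04% lower. The 5 higher genes were 27.8% of the list beside 11.2% of all genes called. The median log2 fold change, 0.06, lay close to that of all genes. This list, like the others, was chosen with earlier results of these data known, so its share called is a description and not a test. CD40LG, the CD40 ligand of activated T cells, whose transcript PTBP1 stabilizes, rose from 17.7 and 18.9 CPM with shNC to 56.1 and 53.6 CPM with shIRF2BP2 (log2 fold change 1.58, adjusted p = 0.0011 from edgeR). PTPRC, which encodes the phosphatase CD45 with its alternative exons, rose from 439 and 426 CPM to 964 and 910 CPM (log2 fold change 1.11, adjusted p = 0.0029 from edgeR).

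FLNA, the actin cross-linker filamin A, rose from 726 and 590 CPM to 1507 and 1353 CPM (log2 fold change 1.12, adjusted p = 0.0055 from edgeR). HIF1A, the oxygen-regulated transcription factor subunit, rose from 138 and 115 CPM to 236 and 216 CPM (log2 fold change 0.84, adjusted p = 0.0099 from edgeR). CD40LG, PTPRC, FLNA and HIF1A stayed called without any 1 library. ACTN1, which encodes alpha-actinin, rose from 94.3 and 97.5 CPM to 145 and 155 CPM (log2 fold change 0.65, adjusted p = 0.013 from edgeR), a call that was lost without shIRF2BP2 replicate 1 (adjusted p = 0.056) and without replicate 2 (adjusted p = 0.082). PKM and FAS, the best known exon choices of PTBP1, had log2 fold changes of 0.06 (SE 0.230) and -0.10 (SE 0.134). The tables hold 1 value per gene, so the use of exons, where these proteins act, was not measured.

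Some transcripts in which an exon is skipped, or a poison exon is included, are removed by nonsense-mediated decay. Of 10 decay factors, 1 was higher and 0 lower in J.gamma1 cells by edgeR, 10% of the list beside 11.2% of all genes called. At an unadjusted p under 0.05, 6 were higher and 1 lower, where 14.3% of all genes were higher and 13.4% lower. DESeq2 called 3 higher and 0 lower, and over the 27082 genes it was run on 4.53% higher and 4.04% lower. Those genes include ones of few counts that the edgeR filter left out, and genes without an adjusted p counted as not called. The DESeq2 shares are therefore not over genes as well expressed as the list. The list's median log2 fold change was 0.31 beside 0.007 over all genes. SMG6, the endonuclease of the pathway, rose from 83.1 and 78.9 CPM to 109 and 115 CPM (log2 fold change 0.47, adjusted p = 0.038 from edgeR). It was not called without shNC replicate 2 (adjusted p = 0.050), shIRF2BP2 replicate 1 (0.18) or shIRF2BP2 replicate 2 (0.22). The helicase UPF1 was not called (log2 fold change 0.31, adjusted p = 0.18 from edgeR).

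The same lists were tested in mouse T cells, where fewer genes were called over the whole table. Of 24 co-factors tested, 0 were called by edgeR and 3 had an unadjusted p under 0.05 (16.2% of all genes). DESeq2 called 4.35% of the 22114 genes it was run on higher, again with genes of few counts among them. Of the co-factors it called 1 higher, Hnrnpll. This regulator of Ptprc exons measured 54.2, 58.7 and 66.9 CPM in WT and 84.4 and 92.4 CPM in KO (log2 fold change 0.56, adjusted p = 0.097 from edgeR). Of 18 PTBP-controlled transcripts tested, 1 was higher, 5.56% of the list beside 2.83% of all genes called. It was Cttn, which encodes the actin-binding protein cortactin and rose from 2.05, 3.32 and 2.82 CPM to 9.66 and 9.72 CPM (log2 fold change 1.83, adjusted p = 0.029 from edgeR). Its call was lost without WT replicate 1 (adjusted p = 0.11), WT replicate 3 (0.053), KO replicate 1 (0.21) or KO replicate 2 (0.23). Ptprc (0.06), Cd40lg (0.09), Fas (-0.23) and Pkm (-0.37) had log2 fold changes that were not called. Of the 10 decay factors, 0 were called by edgeR, 0 had an unadjusted p under 0.05 and 0 were called by DESeq2. Raver2 had a log2 fold change of 0.06, with 17.6 ± 2.27 CPM in WT (SD, n = 3) and 18.3 ± 3.43 CPM in KO (SD, n = 2).

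**Figure D3:**
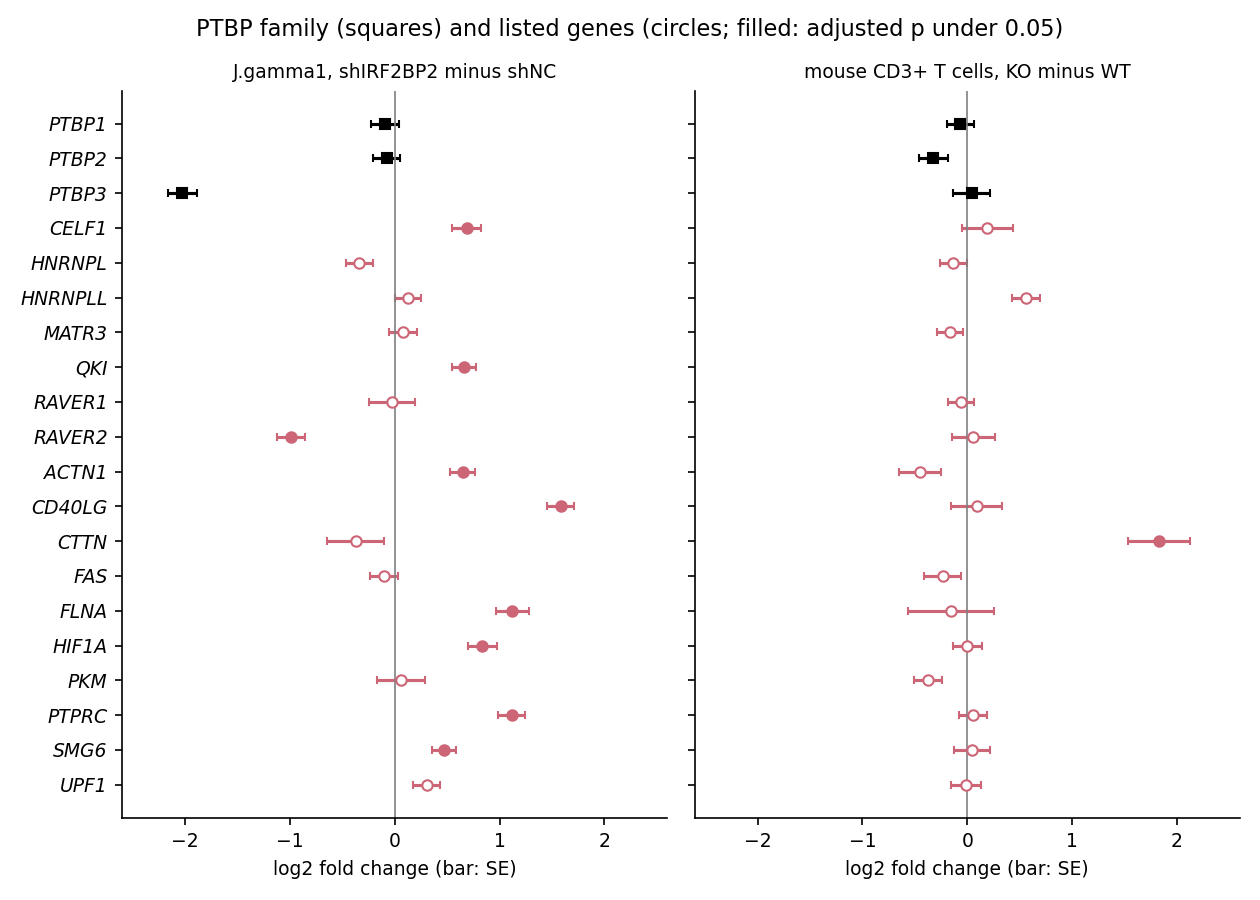
Log2 fold change and SE (edgeR, SE derived from the F statistic) of the PTBP family and of named genes of the lists. Black squares are the family, shown without a test, and circles the listed genes, filled where the adjusted p was under 0.05. J.gamma1 cells are on the left (shIRF2BP2 minus shNC) and mouse CD3+ T cells on the right (KO minus WT, with the human symbols). Genes were matched by symbol, and no mouse gene matched Qki, so quaking has no point on the right. PTBP3 lay at -2.03 on the left and 0.04 on the right, RAVER2 at -0.99 and 0.06, and CD40LG at 1.58 and 0.09.

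The word AGGTCTA shown above was then counted in the representative transcripts of 12665 coding genes tested in each species, on the strand of the transcript. It was in 10.6% of the human and 11.4% of the mouse transcripts. Among 1718 human transcripts within 20% of the length of that of PTBP3, 18.2% held it and 2 transcripts, PTBP3 included, held 4 or more copies. In J.gamma1 cells, 5.16% of the 11328 genes with 0 copies were called lower, 15.2% of the 1202 with 1 copy and 21.1% of the 123 with 2 copies. Without shIRF2BP2 replicate 1, 9.50% of genes with the word and 2.38% of genes without it were called lower, and 10.4% and 3.01% without shIRF2BP2 replicate 2. Of the 11 genes other than PTBP3 with 3 or more copies, 2 were called lower. The median log2 fold changes of these classes were 0.01, -0.08, -0.17 and -0.19. In the opposite direction, 5.24% of the genes with the word and 7.15% of those without it were called higher.

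For the reverse complement, TAGACCT, 6.39% of the 11082 genes with 0 copies were called lower in J.gamma1 cells, 5.49% of the 1403 with 1 copy, 5.16% of the 155 with 2 copies and 3 of the 25 with 3 or more. Of the 1583 genes that held it, 8.91% were called higher, beside 6.67% of those that did not. The PTBP3 transcript itself held 2 copies of TAGACCT, and those of PTBP1 and PTBP2 held 0. In mouse, Ptbp3 held 3 copies of TAGACCT, Ptbp1 held 1 and Ptbp2 held 0. Transcripts with AGGTCTA were longer, with a median of 5018 bases against 3180. Among transcripts of at least 5000 bases, 9.50% of the 674 with the word and 3.62% of the 2765 without it were called lower. The part of transcript length in these shares was not tested. In mouse T cells 0.139% of genes with the word and 0.169% of genes without it were called lower. The word came from these same data, so these shares are a description. RAVER2 fell with 0 copies of AGGTCTA (3 of GGTCTA), and the 5 PTBP-controlled transcripts that rose held 0 copies. IRF2BP2 itself held 2 copies. Sites in transcripts other than the representative one were not counted, and the part of the word in the level of PTBP3 was not tested. The sequence of the hairpin was not analysed here.

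**Figure D4:**
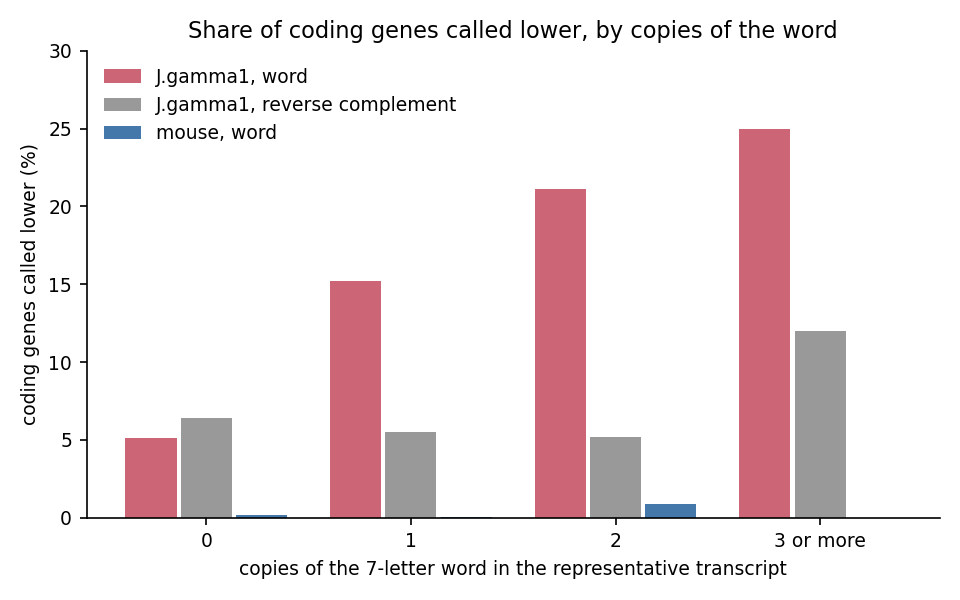
Percent of coding genes called lower (adjusted p under 0.05, edgeR) by the number of copies of the 7-letter word, or of its reverse complement, in the representative transcript. In J.gamma1 cells the share was 5.16% with 0 copies of the word and 21.1% with 2, and the class of 3 or more holds 12 genes, PTBP3 among them; the mouse bars all lie below 1%.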

How the data were processed

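RNA was sequenced by the authors in 4 J.gamma1 and 5 mouse CD3+ T cell libraries from a TruSeq kit. By the submitters' processing notes the reads were aligned with HISAT2 2.2.0 to hg38 or mm10, followed by StringTie. The tables deposited hold counts, whole numbers for each Ensembl gene and library that the authors neither normalized nor pooled. How StringTie's output was turned into counts, and whether the counting used the strand, are not given in the sources used here, so counts divided by 2 were an alternative. Rows were restricted to identifiers in GENCODE 44 (human, 56105 rows) or M21 (mouse, 42462 rows), which also gave symbols, coordinates, lengths and transcript sequences. The representative transcript is 1 coding transcript per gene.

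Human and mouse tables were fitted separately with edgeR 4.0.16 in R 4.3.3 (filterByExpr, TMM scaling, glmQLFit and glmQLFTest, group as the sole term), which kept 15819 and 15350 genes, with Benjamini-Hochberg adjustment over all of them. A call is an adjusted p under 0.05. CPM uses TMM-scaled totals. The SE of a log2 fold change is its absolute value divided by the square root of the F statistic, so it carries the same information as that test. The biological coefficient of variation was 0.165 and 0.271, with 2 and 3 residual degrees of freedom. Each library was counted once. Replicates differed by more than sampling noise (chi-square per gene at least 20.0), which does not show whether they were separate cultures or animals. The members and the gene lists were chosen with earlier results of these data known. Named list genes are the called ones of at least 5 CPM, at most 6 in each direction per list, and some fixed genes (PKM, FAS, PTPRC, CD40LG, RAVER1, MATR3, HNRNPL, HNRNPLL and UPF1); RAVER2 in mouse, MBNL2 and SRC, and the neighbors of PTBP3, were added after their values were seen. DESeq2 1.42.0, scaling by RLE or by the upper quartile, other count filters, all rows, a fold threshold, the replicate block and leaving out each library were tried as alternatives. The length choice of the representative transcript and the word counts under each fit were added after seeing the data. Scripts were tested on simulated counts.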

Additional observations from a re-analysis of the deposited data

Results flagged for a closer look

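Of the listed genes, 4 had log2 fold changes of opposite sign in the human line and in the mouse cells, with every treated library on 1 side of every control library in each. ACTN1 had 0.65 in J.gamma1 cells after shIRF2BP2, where it was called, and Actn1 had -0.45 in KO mouse T cells, where it was not. CTTN had -0.37 in J.gamma1 cells, which was not called, and Cttn 1.83 in mouse T cells, which was. CTTN was low in J.gamma1 cells, at 5.21 ± 0.976 CPM with shNC and 4.03 ± 0.399 CPM with shIRF2BP2 (SD, n = 2 each). MBNL2 had 0.23 and Mbnl2 -0.33, and SRC had -0.15 and Src 0.58, with none of these called. The difference between both kinds of cells was not tested for any of the 4 genes. Separated groups were common: every treated library lay below every control library in 28.7% of all genes tested in J.gamma1 cells and 17.8% in mouse T cells. The share with every treated library above every control library was not counted. Nor was the share of all genes that lie on opposite sides in both kinds of cells, so the 4 genes cannot be set beside it.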

How the results depend on the processing

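The log2 fold change of PTBP3 ranged from -2.16 to -1.88 over the fits without 1 library, that of PTBP1 from -0.21 to -0.0059, that of Ptbp1 from -0.17 to -0.0084, that of Ptbp2 from -0.45 to -0.24 and that of Ptbp3, whose sign turned, from -0.046 (without WT replicate 2) to 0.18 (without WT replicate 3). A lone library left in a group was assumed to vary like the other group. These fits gave 418 to 1863 higher and 419 to 1384 lower genes over the whole human table and 4 to 13 higher and 1 to 4 lower listed genes. In mouse they gave 6 to 594 higher and 1 to 65 lower genes and 0 to 1 higher listed genes. With genes kept at 1 count or more anywhere, J.gamma1 cells had 319 higher and 396 lower genes. With DESeq2, 961 were higher and 255 lower in mouse, with 2 listed genes higher, and with counts divided by 2 there were 37 lower. The causes were not tested.

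The numbers were not taken to pair the libraries, because the labels tie no number to a shared animal, culture or day, and the 2 pairs in each species are too few to show it. The correlation of deviations was 0.308 for the human pairs, a single value since 2 libraries of a group deviate as mirror images, and 0.268 and -0.0518 for the mouse pairs. With the replicate block, 1884 genes were higher and 1663 lower in J.gamma1 cells, with 2 listed genes lower, and in mouse 48 were lower and 0 listed genes higher.

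The sign of some log2 fold changes that were not called reversed. Without 1 library, PKM ranged from -0.21 (without shNC replicate 1; -0.19 without shIRF2BP2 replicate 2) to 0.39, MATR3 from -0.0044 (without shIRF2BP2 replicate 1) to 0.14 and RAVER1 from -0.47 to 0.29 (without shIRF2BP2 replicate 2). In mouse, Cd40lg ranged from -0.31 (without KO replicate 2) to 0.37 and Upf1 from -0.057 to 0.095 (without WT replicate 3). Upf1 was 0.033 with at least 10 counts in every library and 0.095 with the replicate block.

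Levels per kilobase depend on the length. With the longest transcript, PTBP1 had 135.7 (74.3% of the sum) with shNC and 127.3 (90.2%) with shIRF2BP2, PTBP2 3.26 (1.79%) and 3.09, and PTBP3 23.9% and 10.7 (7.64%). With the representative transcript, PTBP1 had 197.4 (76.6%) and 185.1 (88.8%), PTBP2 11.8 (4.58%) and 11.2 (5.39%), and PTBP3 48.6 (18.8%) and 11.9 (5.76%). In mouse, with either length, Ptbp1 had 132.7 in WT and 126.9 in KO, and Ptbp3 had 61.8 in WT and 63.6 in KO. With the longest transcript the shares in WT and KO were 65.5% and 64.3% for Ptbp1, 4.20% and 3.45% for Ptbp2 (8.52 and 6.80) and 30.3% and 32.3% for Ptbp3. With the representative transcript they were 65.3% and 64.1%, 4.49% and 3.68% (9.12 and 7.29), and 30.2% and 32.2%.

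Genes with AGGTCTA were called lower more often than genes without it in every J.gamma1 fit, with 9.27% to 22.5% against 2.28% to 11.0%. The word was picked from these same libraries, which all the fits share, so this is a description and not independent support. The members held 568 to 18619 counts per library, and a gene at 0 in a library could be present at up to 3 counts.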
